A study of Mus musculus and Bos taurus with 2 samples.

Results

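RAB GTPases are small membrane-bound switches that direct vesicle traffic, and the genes described here are those whose name is RAB followed by a number and at most 1 letter. A gene was included when at least 1 transcript model on its own strand carried that name. By this rule 46 RAB genes with 98 models were found in mouse embryos, of 14090 named genes and 42028 models in all, and 48 RAB genes with 106 models in bovine embryos, of 13375 named genes and 40819 models. Over both species the rule gave 56 different symbols.

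The data are 2 long-read RNA libraries, 1 per species, each from a pool of about 200 embryos produced in vitro. The mouse library is from Slc:ICR embryos at the late 2-cell stage, 36 h after insemination, cultured in KSOM. The bovine library is from embryos of 8 to 16 cells, 72 h after insemination, made from Japanese Black or Japanese Black × Holstein F1 oocytes with sperm of a Japanese Black bull. Polyadenylated RNA was copied to cDNA, amplified with 14 PCR cycles and read on a nanopore device, and both libraries are labelled batch 1. The mouse oocytes came from superovulated females and the bovine ones were matured in vitro. The deposited files give the exon positions of assembled transcript models and no read numbers, so the depth behind a model is unknown and no expression level can be given. Species, stage and annotation differ together between the libraries and cannot be told apart, and with 1 library each there is no replicate check and no p-value. Intervals on shares are exact 95% Clopper-Pearson intervals and cover counting error only.

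A RAB protein is bound to GDP in the cytosol, where a GDP dissociation inhibitor covers its prenylated tail, and becomes active on a membrane when an exchange factor loads it with GTP. In that state it recruits effectors such as tethers, motors and lipid kinases, until a GTPase-activating protein ends the cycle. Different RAB proteins mark different membranes, and in oocytes and cleaving embryos these pathways serve uptake at the cell surface, secretion of cortical granules and the turnover of maternal proteins in lysosomes.

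The sequences that follow are those on which the structural findings turn, taken from GENCODE M21 transcripts and, for Rab40b, from the RefSeq promoter table, both on the mouse build GRCm38 (mm10), 5′ to 3′ on the gene's strand. Rab6a directs traffic at the Golgi and is known for alternative splice forms that use 1 of 2 coding exons. Both exons were present in the mouse embryo models, at chr7:100629666-100629771 and chr7:100629838-100629943 on the plus strand. Capitals mark the positions at which the exons differ, 30 of 106 bases, which leaves 71.7% identity.
Rab6a upstream exon: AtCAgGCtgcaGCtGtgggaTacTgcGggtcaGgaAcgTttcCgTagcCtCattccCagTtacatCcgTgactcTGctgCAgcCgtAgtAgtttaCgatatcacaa
Rab6a downstream exon: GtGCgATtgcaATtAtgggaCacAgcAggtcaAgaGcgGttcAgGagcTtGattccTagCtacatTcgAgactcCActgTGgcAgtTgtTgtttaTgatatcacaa

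Coding exons that some mouse embryo models of Rab13, Rab24 and Rab26 left out are shown next. Others, in Rab2b, Rab34, Rab40c and Rab26, are not printed. Models without the printed exons held no full coding chain, meaning every coding base and coding intron of an annotated transcript. This follows largely from the definition, because a left-out coding exon takes its coding bases with it. Whether each length is a multiple of 3 is given, but the reading frame of whole models was not read. In Rab13, at chr3:90224702-90224767 and chr3:90224494-90224583 on the plus strand, the 66-bp and 90-bp exons were left out. In Rab24, at chr13:55320927-55320994 and chr13:55321102-55321180 on the minus strand, exons of 68 and 79 bp were left out together. In Rab26, at chr17:24529741-24529817 on the minus strand, an exon of 77 bp was left out.
Rab13 exon of 66 bp: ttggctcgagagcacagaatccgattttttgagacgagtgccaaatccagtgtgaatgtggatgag
Rab13 exon of 90 bp: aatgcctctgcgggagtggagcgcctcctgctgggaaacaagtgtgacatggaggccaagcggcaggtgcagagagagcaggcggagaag
Rab24 exon of 79 bp: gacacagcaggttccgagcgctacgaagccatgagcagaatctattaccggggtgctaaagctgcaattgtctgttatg
Rab24 exon of 68 bp: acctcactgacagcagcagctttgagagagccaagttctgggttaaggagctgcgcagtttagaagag
Rab26 exon of 77 bp: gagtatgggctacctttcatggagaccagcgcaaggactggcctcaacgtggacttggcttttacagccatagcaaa

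The last set belongs to Rab40b, whose 2 embryo models began upstream of the annotated gene. The first sequence is the 124 bases before the embryonic start, chr11:121388378-121388501 on the minus strand. The second spans the end of the embryonic first exon, chr11:121388264-121388285, with the first 2 intron bases in capitals.
Rab40b before the embryonic start: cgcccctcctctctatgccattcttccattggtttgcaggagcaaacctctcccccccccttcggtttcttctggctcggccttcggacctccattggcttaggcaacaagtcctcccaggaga
Rab40b end of the first exon: caatggcaagGTaaggtgggcg

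Most annotated mouse RAB genes had a model. Of 59 protein-coding RAB symbols in the RefSeq table, 46 had one (78.0%, 65.3 to 87.7), beside 53.5% of all 21900 protein-coding symbols. The 13 symbols without a model were Rab15, Rab17, Rab25, Rab27b, Rab30, Rab36, Rab37, Rab39b, Rab3c, Rab44, Rab6b, Rab7b and Rab9b. Of these, 10 had a bovine model, namely Rab15, Rab25, Rab27b, Rab30, Rab36, Rab37, Rab39b, Rab3c, Rab6b and Rab7b. The 8 members with a mouse model only were Rab12, Rab19, Rab20, Rab23, Rab33a, Rab38, Rab42 and Rab43, and 38 were found in both libraries. Because read depth is unknown, a gene without a model cannot be called silent. No bovine annotation was used here, so the number of bovine RAB genes that could have been found was not counted.

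An exact match is a model whose introns are all those of a reference transcript. In mouse, 41 of 46 RAB genes had one (89.1%, 76.4 to 96.4), beside 72.5% of all genes with a model. In bovine, 43 of 48 had one (89.6%, 77.3 to 96.5), beside 65.5% of all genes. The members without an exact match were Rab12, Rab27a, Rab35, Rab3b and Rab40b in mouse and RAB27B, RAB31, RAB34, RAB36 and RAB40C in bovine. Per model the exact share was 60.2% in mouse (59 of 98, 49.8 to 70.0), beside 55.4% of all named models. In bovine it was 57.5% (61 of 106, 47.6 to 67.1), beside 44.0%. Most other models were junction variants, which share at least 1 splice site with a reference transcript but not all introns. They numbered 33 in mouse (33.7%), beside 33.5% of all named models, and 41 in bovine (38.7%), beside 43.8%. No RAB model was of a single exon in either library, which allows up to 3.69% in mouse and 3.42% in bovine. Over all named models the single-exon share was also low, 3.73% and 2.51%.

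Members with few models were the rule. The number of models per gene had a median of 2 in mouse, range 1 to 7, and of 1 in bovine, range 1 to 11. Over all named genes the median was 2 in each library. A single model was found for 21 of 46 mouse members (45.7%, 30.9 to 61.0), beside 48.8% of all genes. In bovine this held for 27 of 48 members (56.2%, 41.2 to 70.5), beside 42.1% of all genes. In 9 of the 38 shared members both libraries held exactly 1 model. The same count over all shared genes is not given, so nothing particular to RAB genes is read from it. Median spliced length was 1915 bp in mouse (413 to 6065), beside 1972 bp over all named models. In bovine it was 1694 bp (291 to 4162), beside 1824 bp.

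**Figure D1:**
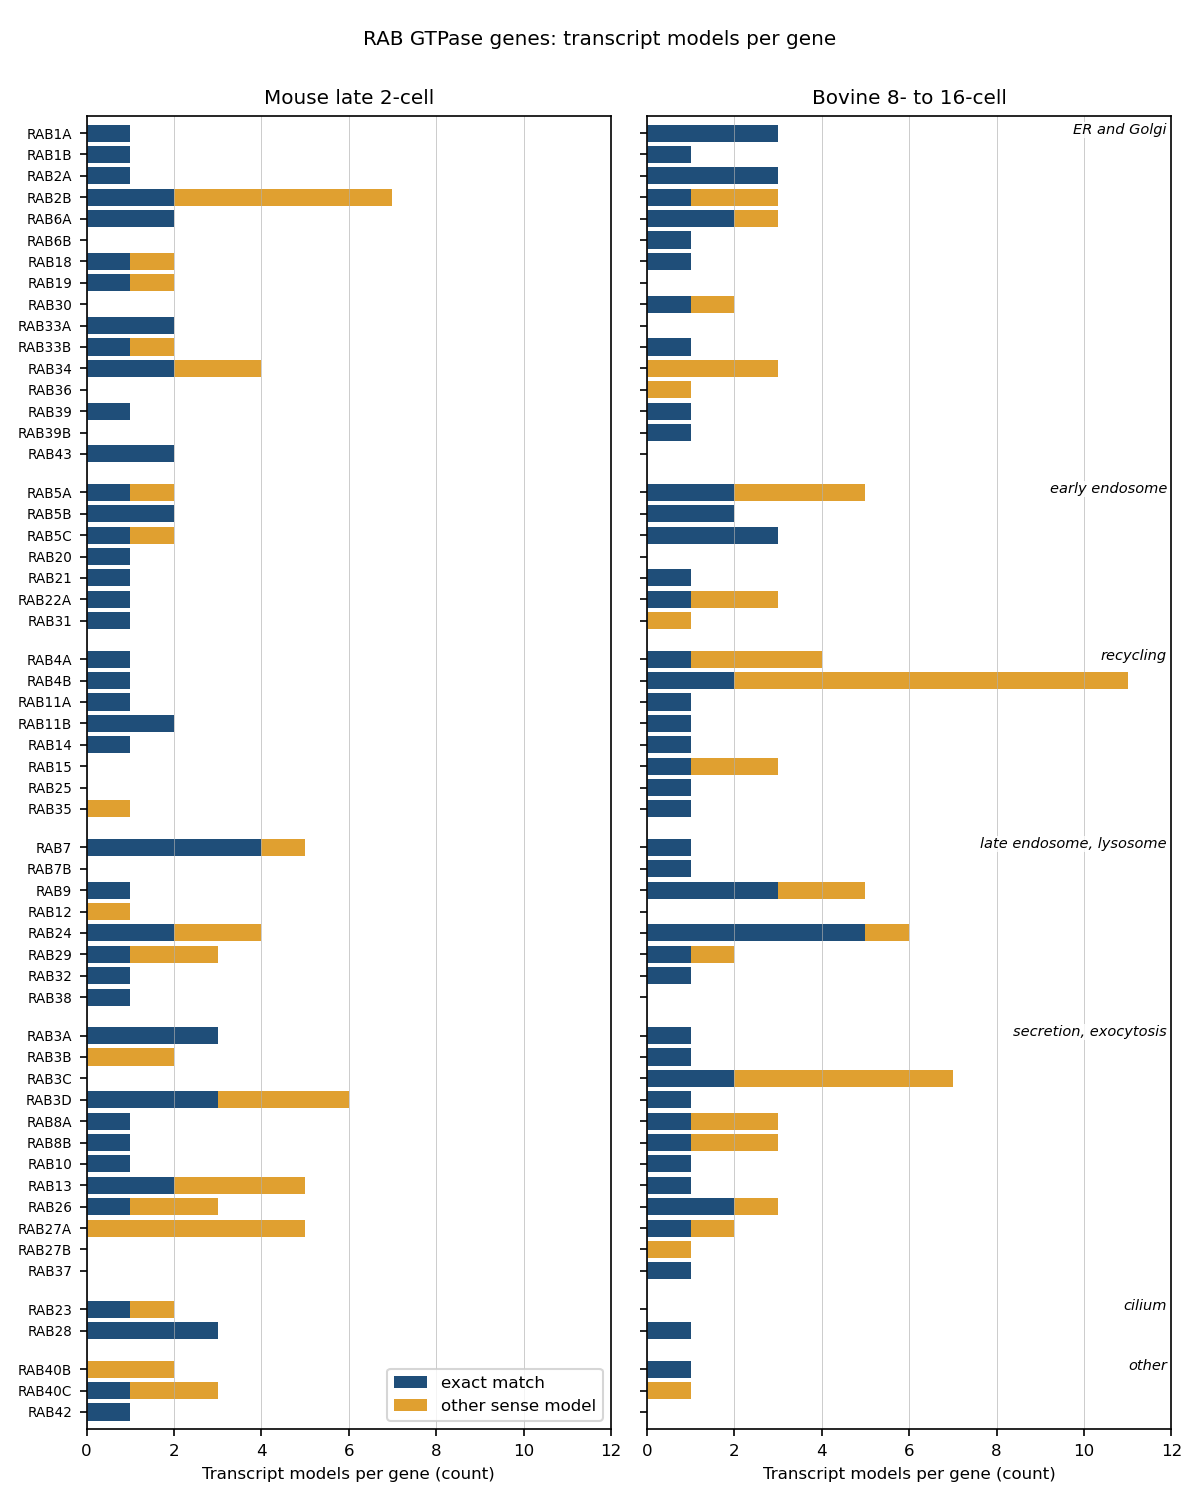
Transcript models per RAB gene (count, horizontal axis) in the mouse late 2-cell library (left) and the bovine 8- to 16-cell library (right), grouped by membrane role, with exact matches in blue and other sense models in orange. Bovine RAB4B has the longest bar with 11 models, followed by 7 each for mouse Rab2b and bovine RAB3C, while most genes have 1 or 2.

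Genes of the endoplasmic reticulum and Golgi were found for 12 of 16 mouse symbols, with 27 models, and for 13 bovine members, with 24. RAB1A and RAB1B, which act between the endoplasmic reticulum and the Golgi, had 1 exact model each in mouse. Bovine RAB1A had 3, all exact, and bovine RAB1B had 1. Of the 3 bovine RAB1A models, 1 held all 4 internal exons of 73, 96, 96 and 132 bp, 1 lacked the exon of 132 bp and 1 lacked an exon of 96 bp. RAB2A, which acts on the same path, had 1 model in mouse and 3 exact models in bovine. The 3 bovine RAB2A models differed by an extra 56-bp exon after the first and by a form of the fourth internal exon of 144 bp in place of 93 bp.

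Rab2b, a Golgi protein close to Rab2a, had the most mouse models. Of its 7 models 2 were exact, and the other 5 all began at 52279122 on chromosome 14, minus strand, inside the first intron of the exact matches, and ran on into the second exon. These 5 models differed in the exon of 83 bp, which was present, shortened to 39 bp, lengthened to 161 bp, left out, or left out with the next exon of 93 bp. None of the 5 held a full coding chain. In bovine, RAB2B had 3 models, of which 1 also began inside the first intron, at 25693371 on chromosome 10, plus strand, the base after the annotated first exon. Another began 492 bp upstream of the exact match (0.492 kb), with a first exon of 173 bp that lay on exons of TOX4 on the opposite strand.

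Rab6a had 2 mouse models, both exact, which shared every exon but 1. Model 1 held the upstream 106-bp exon printed above and model 2 the downstream one. Bovine RAB6A had 2 exact models built the same way, with exons at chr15:53183988-53184093 and chr15:53184160-53184265 of build bosTau9, also of 106 bp each. In both species 66 bp separated the exons. The bovine gene is on the minus strand, so the exon at the higher position is the upstream one and was held by model 3. No model in either library held both exons or lacked both. A further bovine model began 0.286 kb upstream of the exact matches, in a first exon of 238 bp spliced to a 296-bp form of the annotated one, and it held the downstream 106-bp exon.

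The other members of this group had 1 to 4 models. Rab34, which positions lysosomes and takes part in cilium formation, had 4 mouse models at 3 start groups, a start group joining starts within 100 bp of each other. Of these, 3 held a full coding chain, and model 2 left out a coding exon of 213 bp. Model 3 spliced a 548-bp stretch out of the first exon of model 4. Bovine RAB34 had 3 models and no exact match. Model 1 carried internal exons of 92, 66, 102, 65, 52, 82, 91 and 108 bp, lengths also found in the mouse exact match. Model 2 kept the intron between the exons of 82 and 91 bp and model 3 lacked the exon of 108 bp.

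A new first exon is one that overlaps no exon of any exact match of its library on the same strand. Of this group, 3 mouse members had one. Rab18, a lipid droplet protein on chromosome 18, had 1 model that began 43.6 kb upstream of the exact match, with a first exon of 58 bp and a new internal exon of 173 bp. Rab19 had 1 model from 0.366 kb upstream, and it held the full coding chain, which the Rab19 exact match did not. Rab33b, an autophagy protein, had 1 model from 0.162 kb upstream whose first exon ended at 51484112, the base before the exact match began. That Rab33b exon is in GENCODE, and it overlaps an exon of Gm38160 on the opposite strand. Rab33a and Rab43 had 2 exact models each, and Rab39 had 1. Bovine RAB30 had 2 models, 1 of them exact. Bovine RAB18, RAB33B, RAB39A, RAB39B and RAB6B had 1 exact model each, and RAB36 had 1 junction variant of 2 exons.

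Early endosome genes were all found in mouse, 7 of 7 symbols with 10 models, and 6 members with 15 models were found in bovine. RAB5A, the main organiser of early endosome fusion, had 2 mouse models and 5 bovine models. In mouse Rab5a, 1 model spliced a 145-bp stretch out of the first exon, at 53479414 to 53479558 on chromosome 17. In bovine RAB5A, 3 of 5 models spliced a 154-bp stretch out of the first exon, at 2 positions 1 base apart (157198687 and 157198688). The mouse stretch began with AA and ended with TC, where most introns begin with GT and end with AG, and 75.2% of its bases were G or C. Bovine bases were not read. Bovine RAB5A model 2 also lacked the exon of 94 bp. The next exon was 255 bp long in mouse Rab5a and 256 bp in bovine RAB5A. Rab5b had 2 exact models in each species. Rab5c had 2 mouse models, 1 of them with a 320-bp stretch spliced out of the last exon, and bovine RAB5C had 3 exact models, 1 of which began 16.9 kb downstream of the outermost start.

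Bovine RAB22A, which acts between early and recycling endosomes, had 3 models that shared every exon but the first. They began 1.25 kb upstream, at the exact match, and 0.45 kb downstream of it, in first exons of 484, 158 and 53 bp. The upstream exon overlapped exons of LOC783163 on the opposite strand. Mouse Rab22a, Rab20, Rab21 and Rab31 had 1 exact model each. Bovine RAB21 had 1 exact model and RAB31 had 1 junction variant.

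Recycling endosome genes had few models in mouse and more in bovine. In mouse 6 of 9 symbols were found, with 7 models, of which 6 were exact. In bovine 8 members had 23 models, of which 9 were exact, and RAB4B alone had 11. RAB11A, RAB11B and RAB14 had 1 exact model each in bovine, and Rab11a and Rab14 had 1 and Rab11b 2 in mouse. Rab35 had 1 mouse model that lay inside a reference transcript, and bovine RAB35 had 1 exact model. RAB25 had 1 exact bovine model.

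RAB4B sorts receptors back to the cell surface. Its 11 bovine models lie on chromosome 18, plus strand, and 2 of them, from 50037181 and 50037234, were exact. Another 7 began at the same base, 50037797, which is 0.616 kb downstream of the outermost exact start. They shared a first exon of 215 bp that overlaps no exon of an exact match or of another gene. Model 4 began at 50037514, in a separate exon of 246 bp, 37 bp upstream of the shared one. Behind the shared first exon, model 5 carried all 6 internal exons of the exact match, of 81, 115, 63, 155, 96 and 131 bp. Models 6 and 7 lacked the exon of 81 bp, as did exact model 1. Model 8 held a 125-bp form of the exon of 63 bp. Models 4, 9, 10 and 11 went from their first exon straight to the exon of 96 bp.

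Of the 7 RAB4B models from the shared start, models 6, 8 and 9 ended in the annotated last exon, which model 8 lengthened from 402 to 1270 bp. The other 4 left out the annotated last exon and continued into exons of EGLN2, a gene downstream on the same strand that codes for a prolyl hydroxylase of the oxygen-sensing pathway. They shared 1 to 4 exons with the 3 EGLN2 models, and the first of these lies 8692 bp beyond the end of the RAB4B exact matches. Mouse Rab4b had 1 exact model, with internal exons of 81, 115, 63, 155, 96 and 131 bp, the same lengths as bovine model 3.

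RAB4A, the close relative of RAB4B, had 4 bovine models, 1 of them exact. Model 2 ended in a new last exon of 609 bp and model 3 carried a new internal exon of 75 bp after the first. Model 1 was a short form of 3 exons that held a 420-bp exon ending at the same base, 1221270, as the 75-bp one. Mouse Rab4a had 1 exact model. RAB15 had 3 bovine models at 3 starts, 2 of them in new first exons 0.81 and 10.2 kb downstream of the exact match. Both of these RAB15 models also spliced a stretch out of the annotated last exon, of 1905 and 2006 bp.

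**Figure D2:**
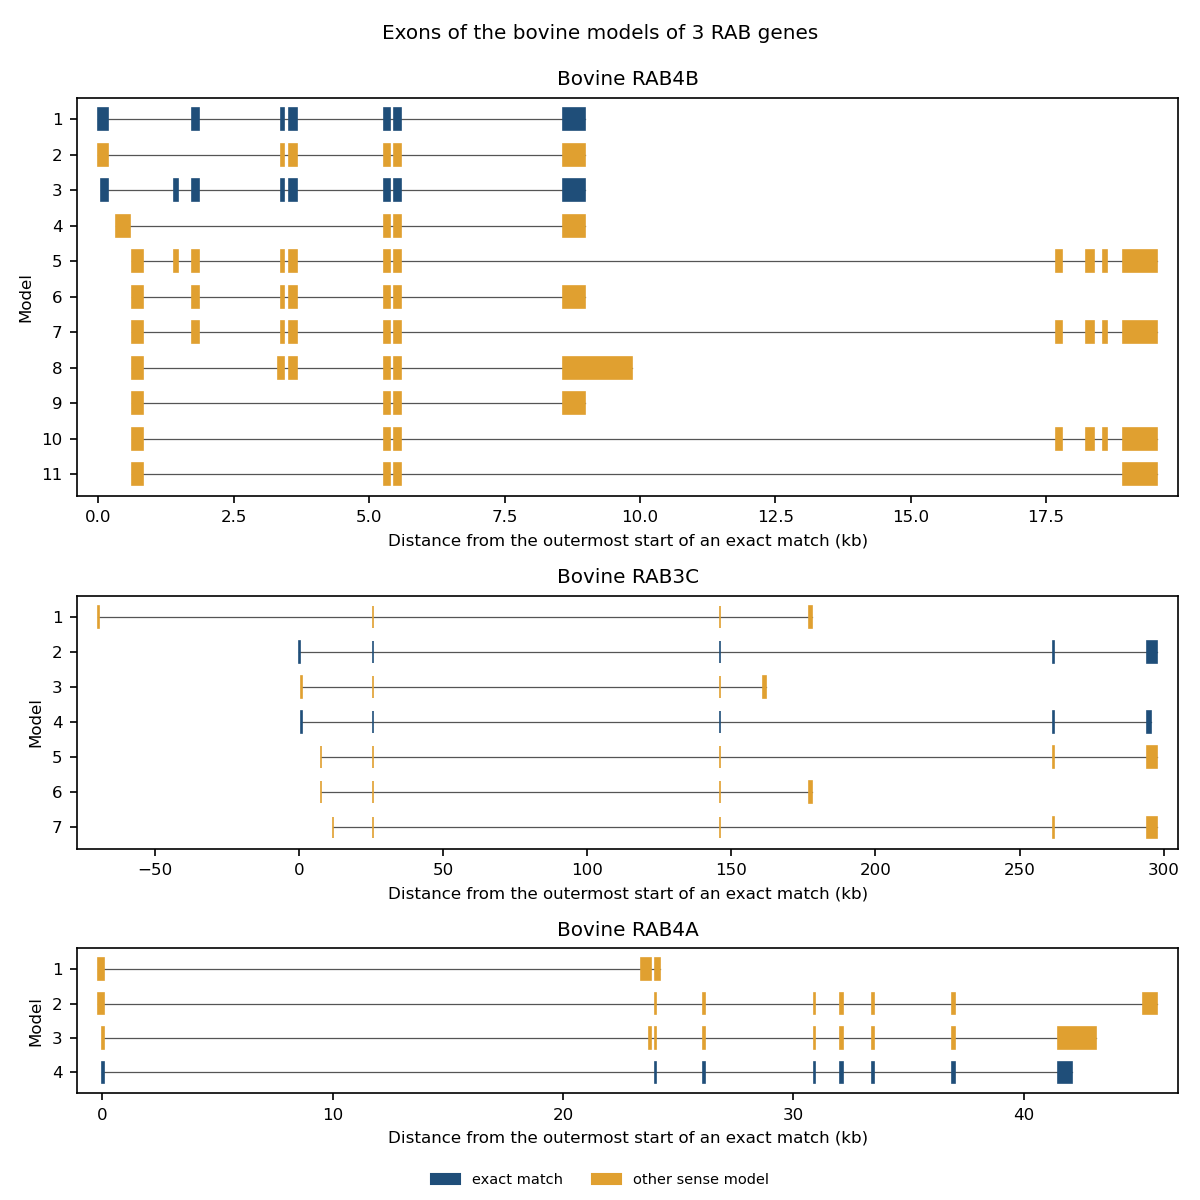
Exons (boxes) and introns (lines) of the bovine models of RAB4B, RAB3C and RAB4A, with distance from the outermost start of an exact match on the horizontal axis (kb, plotted in the direction of transcription), exact matches in blue and other models in orange. The 7 RAB4B models from the shared start sit 0.616 kb to the right of the first start, and 4 of them run on to the EGLN2 exons at the right edge.

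Late endosome and lysosome genes were found for 7 of 9 mouse symbols, with 16 models, and for 6 bovine members, also with 16. Rab7, which brings late endosomes to lysosomes, had 5 mouse models, 4 of them exact, and all 5 held a full coding chain. They began at 2 places 25.5 kb apart and differed in upstream exons of 87 and 135 bp. Rab7 model 1 spliced 2 stretches of 528 and 395 bp out of the last exon. Bovine RAB7A had 1 exact model with the same internal exon lengths as the mouse gene, 61, 127, 219 and 129 bp, and RAB7B had 1 exact bovine model.

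Rab24, which takes part in autophagy, had 4 mouse and 6 bovine models. Mouse model 4 left out the exons of 79 and 68 bp printed above, 147 bp together, a multiple of 3. Mouse models 3 and 4 shared a shortened first exon of 120 bp, and model 3, which left out no exon, held no full coding chain either. In bovine RAB24, 5 of 6 models were exact, and the other left out the exon of 51 bp. The exact RAB24 models differed in a 53-bp form of the exon of 63 bp, in an added last exon of 183 bp, and in a kept intron of 213 bp. The internal exons of 69, 79, 68, 100, 51 and 63 bp had the same lengths in both species.

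RAB9A, which returns receptors from late endosomes to the Golgi, had 5 bovine models and 1 mouse model, there named Rab9. The bovine models held different sets of 2 internal exons of 91 and 31 bp, and in models 3 and 4 the last exon began at an acceptor further upstream, at 129813775 in place of 129813747, and also ended at another base. RAB29 had 3 mouse and 2 bovine models. In each library the exact match spliced the first intron, of 108 bp in mouse and 182 bp in bovine, and the other models kept it. Rab32 had 1 exact model in each, Rab38 had 1 in mouse, and Rab12 had 1 mouse model that lay inside a reference transcript.

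**Figure D3:**
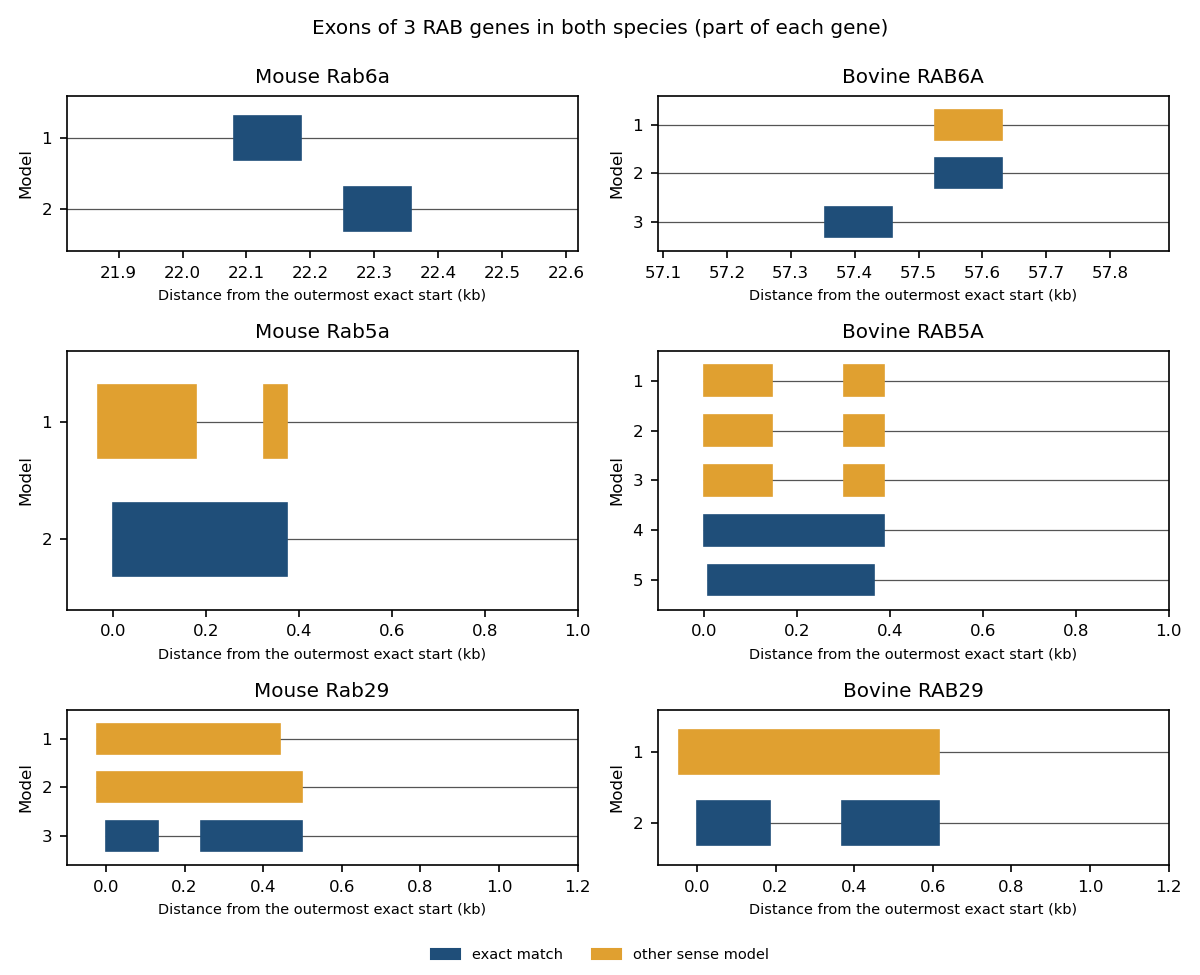
Parts of RAB6A, RAB5A and RAB29 in mouse (left) and bovine (right), with distance from the outermost start of an exact match on the horizontal axis (kb, in the direction of transcription), exact matches in blue and other models in orange. The RAB6A exact models use 1 of 2 exons of 106 bp, RAB5A models split the first exon, and RAB29 models keep or splice the first intron, in both species.

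Secretion genes were found for 9 of 12 mouse symbols and for 12 bovine members, with 27 and 25 models. The RAB3 genes act on regulated secretory vesicles. Rab3a had 3 exact models in mouse that shared start and end and differed by a second exon of 253 or 228 bp and a first exon of 161 or 166 bp, and 1 exact model in bovine. Rab3b had 2 mouse models of 2 exons each and no exact match, and bovine RAB3B had 1 exact model. Rab3d had 6 mouse models and 1 bovine model.

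All 6 Rab3d models held a full coding chain. Of the 3 exact matches, the second exon was 242, 239 and 362 bp long. The other 3 spliced a stretch out of the last exon, 1138 bp in models 4 and 5 and 1072 bp in model 6. The 1072-bp stretch began with GT and ended with AG, and the 1138-bp stretch began with AG and ended with CC.

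RAB3C, a synaptic vesicle protein with no mouse model, had 7 bovine models, with starts from 69.5 kb upstream to 11.9 kb downstream of the outermost exact start. They fell into 6 start groups, the most of any member. All 7 held the exons of 228 and 119 bp. New first exons were found in 4 models, with 1 at 69.5 kb upstream, 2 sharing a start 7.65 kb downstream and 1 at 11.9 kb downstream. New last exons were found in 3 models, of 927, 859 and 927 bp, and these 3 lacked the exon of 125 bp. The first exon furthest upstream overlapped an unnamed model on the same strand.

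Rab13, which traffics proteins to tight junctions, had 5 mouse models at 4 start groups and 1 bovine model. Model 2 left out the 66-bp exon printed above and model 4 left out the 90-bp and 66-bp exons, 156 bp together. Both totals are multiples of 3. Model 4 also began in a new first exon of 124 bp, 0.866 kb downstream of the outermost start. Model 1, an exact match, used a longer form of the 66-bp exon, of 95 bp, and model 3 alone held a full coding chain. Model 5 began 3.7 kb downstream, inside an intron, in a first exon of 249 bp.

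Rab27a, which docks melanosomes and lytic granules, had 5 mouse models at 4 start groups and no exact match, so its first exons could be set only against GENCODE. By that measure model 5 began in a 656-bp exon outside annotation, at 73063736 to 73064391 on chromosome 9. Models 1, 2 and 5 held the full coding chain. Bovine RAB27A had 1 exact model and 1 that began in a new exon of 566 bp, 16.3 kb downstream. RAB27B had 1 bovine model of 2 exons.

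RAB26, which acts on secretory granules, had 3 models in each library. Mouse models 2 and 3 left out coding exons of 77 bp and of 253 bp together, and neither length is a multiple of 3. Bovine RAB26 had 2 exact models, and the other kept an intron.

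The remaining secretion genes, RAB8A, RAB8B and RAB10, steer vesicles to the plasma membrane. All 3 had 1 exact model in mouse. Bovine RAB8A had 3 models, 1 of them with a new internal exon of 77 bp. Bovine RAB8B had 3, of which 1 began 36.1 kb upstream in an exon of 174 bp that overlapped LOC107132851 on the same strand. RAB8B model 3 joined the annotated first exon to a new last exon of 182 bp. RAB10 and RAB37 had 1 exact bovine model each.

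**Figure D4:**
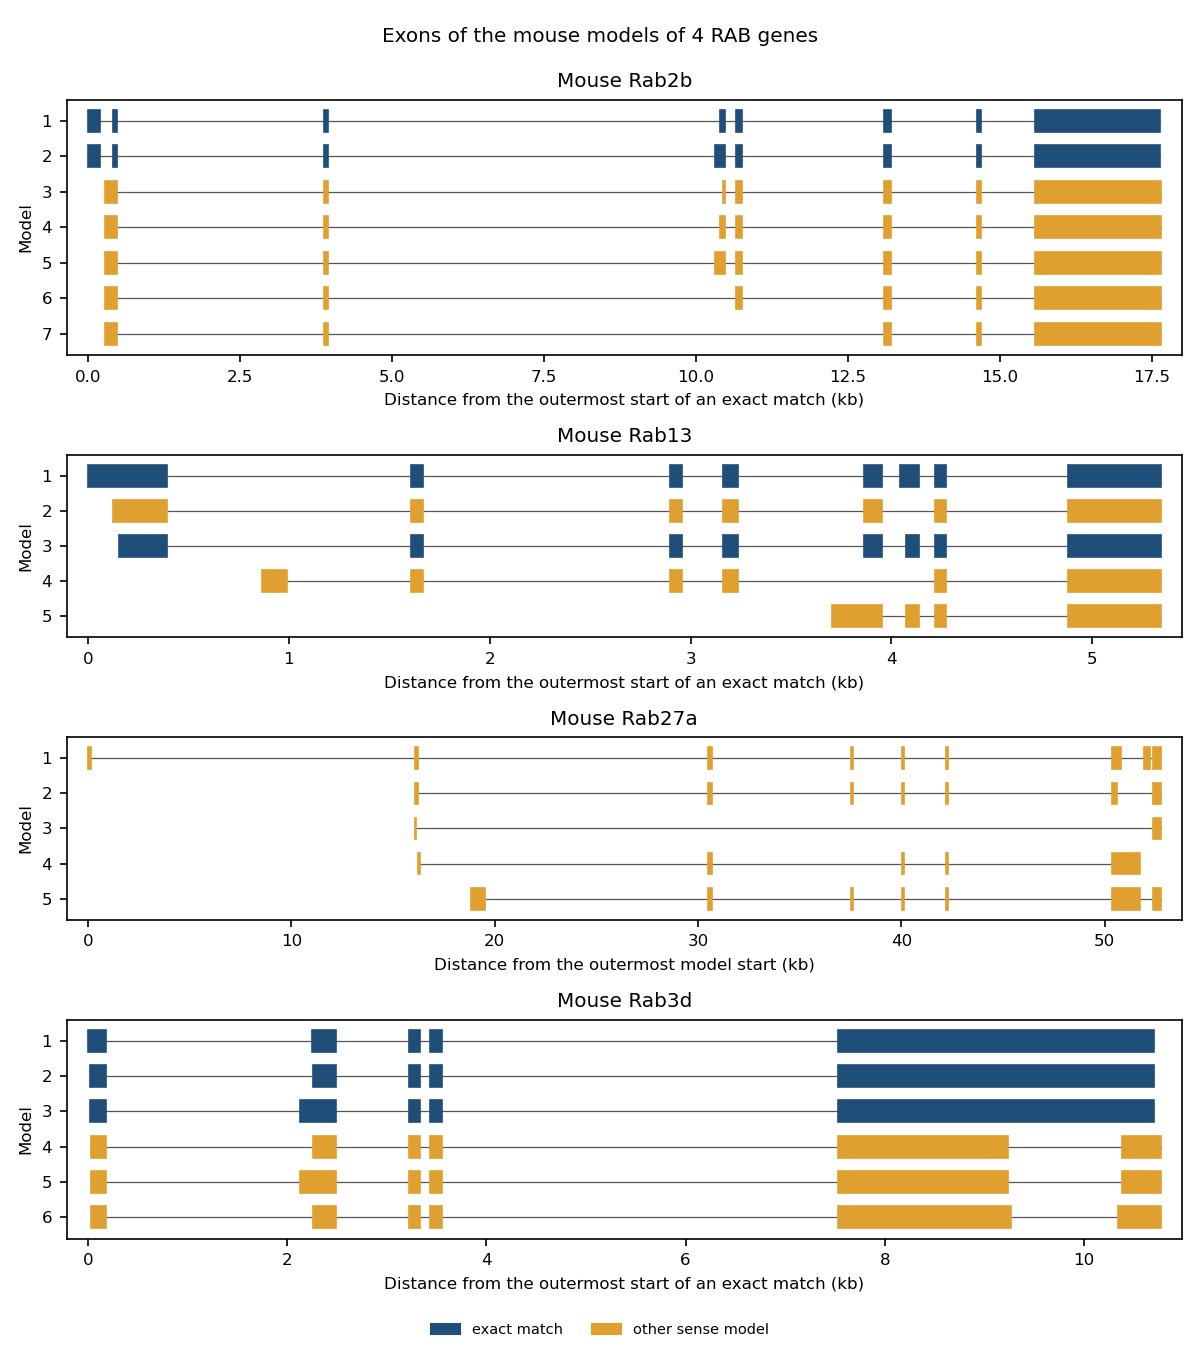
Exons (boxes) and introns (lines) of the mouse models of Rab2b, Rab13, Rab27a and Rab3d, with distance from the outermost start on the horizontal axis (kb, in the direction of transcription), exact matches in blue and other models in orange. Models 3 to 7 of Rab2b share a start inside the first intron, and models 4 to 6 of Rab3d split the last exon.

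The cilium genes Rab23 and Rab28 had 2 and 3 mouse models, and bovine RAB28 had 1. The 3 Rab28 models were exact, held a full coding chain and differed at the 3′ end, where model 1 carried an extra exon of 95 bp. The group without a single membrane held Rab40b, Rab40c and Rab42. RAB40 proteins recruit a ubiquitin ligase through a SOCS box.

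Rab40b had 2 mouse models and no exact match. Both began at 121388377 on chromosome 11, minus strand, 126 bp upstream of the RefSeq start at 121388251, and the first exon of 102 bp ended before the RefSeq start was reached. The intron that follows begins with GT, as printed above. This first exon lies within the span of a model of the neighbouring gene Fn3krp. Bovine RAB40B had 1 exact model, and its first exon was not compared with the mouse one. Rab40c had 3 mouse models at 3 start groups, the last 28.9 kb downstream of the exact start, and bovine RAB40C had 1 model of 2 exons. Rab42 had 1 exact mouse model.

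New first exons were counted by 1 rule in both libraries, for members with an exact match of several exons. The rule sets a first exon against the exact matches of its library alone, so it can take in an annotated exon, as for Rab33b. In mouse 4 of 41 such members had one (9.76%, 2.72 to 23.1), beside 15.8% of all genes. In bovine 8 of 43 did (18.6%, 8.39 to 33.4), beside 16.5%. Both RAB intervals include the value for all genes. Against GENCODE, which exists only for mouse, 6 of 46 members had a first exon outside annotation (13.0%, 4.94 to 26.3), beside 21.1%. Those were Rab13, Rab18, Rab19, Rab27a, Rab3b and Rab40b. At least 3 start groups were found for 4 of 46 mouse members (8.70%, 2.42 to 20.8), beside 6.96%, and for 6 of 48 bovine members (12.5%, 4.73 to 25.2), beside 9.54%. The mouse members were Rab13, Rab27a, Rab34 and Rab40c and the bovine ones RAB3C, RAB15, RAB22A, RAB2B, RAB4B and RAB6A.

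Departures were then counted per model. Of 27 mouse non-exact RAB models that could be set against an exact match, 10 left out an exon (37.0%, 19.4 to 57.6), beside 16.9% of all 7050 such models. Rab13, Rab26 and Rab2b each gave more than 1 of these 10, so they are not independent. The Rab34 one has an intron chain found in GENCODE, and the Rab19 one held a full coding chain. A stretch inside an exact-match exon was spliced out in 7 of 27 (25.9%, 11.1 to 46.3), beside 6.79%, and 3 of the 7 were Rab3d models. In Rab3d models 4 and 5, in Rab5a and in Rab5c the stretch did not have GT and AG at its ends. A new first exon was found in 4 of 27 (14.8%, 4.19 to 33.7), beside 33.6%. Against the reference annotation 7 models had one. They include models of Rab27a, Rab3b and Rab40b, which have no exact match and so are not among the 27. Counted by a first-exon splice donor found in no exact match of the library, the 4 became 9. Such a donor can still be annotated, as for Rab33b. Values per model for all genes by these rules are not given, so the order against all genes was not established. A new last exon was found in 0 of 27, which allows up to 12.8%, beside 13.7%. In bovine, 20 of 38 had a new first exon (52.6%, 35.8 to 69.0), beside 26.1% of 9022. Of these 20 models 8 were of RAB4B and 4 of RAB3C, so they are not independent. When only starts upstream of every exact match counted, the 20 became 5. Between exons shared with an exact match, exons were left out in 3 of 38 bovine models (7.89%, 1.66 to 21.4), beside 22.7%, and 5 of 38 had a stretch spliced out (13.2%, 4.41 to 28.1), beside 4.62%. New internal exons were found in 8 of 38 bovine models (21.1%, 9.55 to 37.3), beside 14.4%, and new last exons in 9 of 38 (23.7%, 11.4 to 40.2), beside 20.1%. Of the 8 models 3 were of RAB4B and held the same EGLN2 exons, and of the 9 models 4 were of RAB4B with 1 shared EGLN2 exon and 3 were of RAB3C.

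**Figure D5:**
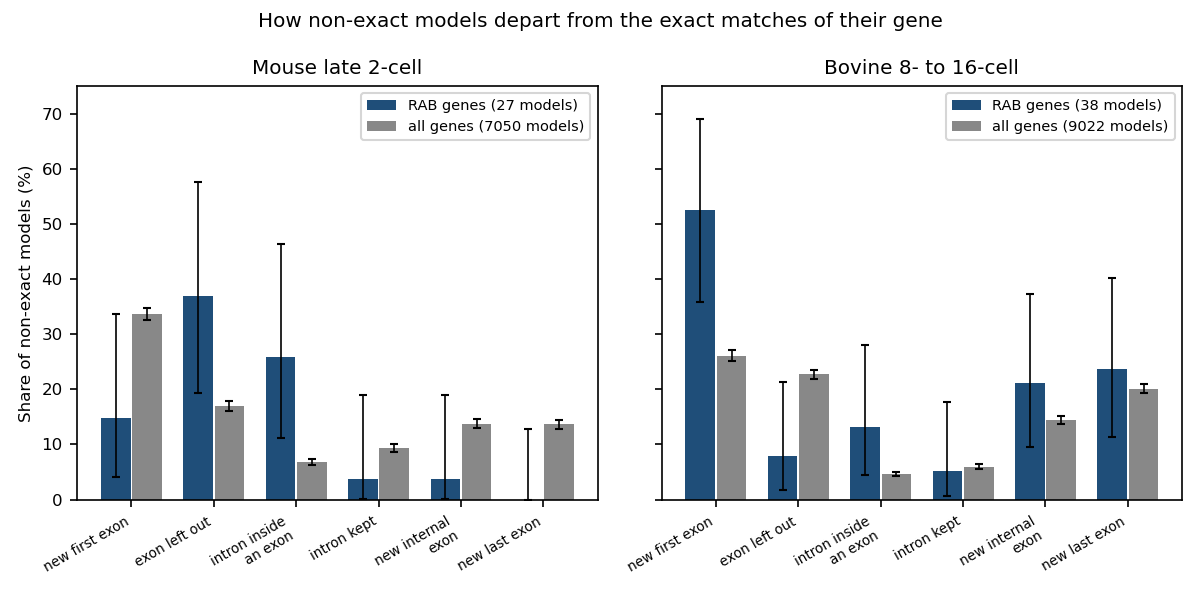
Share of non-exact models (%, vertical axis) that depart from the exact matches of their gene in each of 6 ways, for RAB genes (blue) and all genes (grey) in mouse and bovine, with exact 95% Clopper-Pearson intervals as error bars. New first exons, set against all exact matches of the library, stand at 52.6% in bovine and 14.8% in mouse RAB models. Left-out exons stand at 37.0% in mouse and 7.89% in bovine.

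Of 98 mouse RAB models, 63 held a full coding chain (64.3%, 54.0 to 73.7), beside 53.5% of all models with an annotated coding gene. At least 1 such model was found for 40 of 46 members (87.0%, 73.7 to 95.1), beside 76.1% of genes. The 6 members without one were Rab12, Rab21, Rab32, Rab35, Rab3b and Rab40b. Of non-exact RAB models 13 of 39 held one (33.3%, 19.1 to 50.2), beside 18.5% of all non-exact models. These 13 were 3 models each of Rab27a and Rab3d and 1 each of Rab19, Rab23, Rab29, Rab34, Rab5a, Rab5c and Rab7. The spliced-out stretches gave 7 distinct introns with a readable sequence, of which 4 had GT and AG at their ends, 1 in Rab34, 1 in Rab3d and 2 in Rab7. The ones without were 1 each in Rab3d, Rab5a and Rab5c.

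Internal exon lengths were compared between the species for the 31 shared members with an exact match in each. Of 29 with internal exons in both, 23 had a pair of exact matches in which all of them had the same length (79.3%, 60.3 to 92.0), beside 51.7% of 5414 genes with the same symbol. The RAB pairs also include Rab7 with RAB7A and Rab9 with RAB9A. An exact match has the introns of a reference transcript, so its internal exon lengths are those of the reference. The libraries decided only which transcripts were compared. Exon number was not matched. Mean exons per RAB model were 5.98 in mouse and 6.29 in bovine, beside 8.63 and 8.24 over all named models. The medians were 6 and 7, beside 7 and 6. The exceptions were Rab29, Rab3d, Rab4a, Rab5a, Rab5b and Rab9. In Rab4a the difference was in the sixth internal exon, 133 bp in mouse and 134 bp in bovine, and for Rab5b and RAB5B an exon was 261 bp in the former and 262 bp in the latter. In Rab9 and RAB9A, an exon of 28 bp stood against one of 31 bp. In Rab29 it was the first internal exon, 257 and 250 bp.

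Relatives within the family also shared exon lengths. These too are lengths in exact matches and so those of the reference transcripts. Rab1a and Rab1b had 73, 96, 96 and 132 bp, and Rab2a and Rab2b had 72, 68, 83, 93, 112 and 69 bp. Rab11a and Rab11b had 196, 194 and 81 bp. Rab8a and Rab8b had 61, 61, 78, 90, 66 and 51 bp, Rab13 had the same but for a last exon of 54 bp, and the first 5 lengths were also those of bovine RAB15. Rab10 had 61, 139, 90 and 102 bp. Bovine RAB25 had the 196, 194 and 81 bp of RAB11A and RAB11B, and bovine RAB37 had the 111, 42, 67, 53, 66, 57 and 77 bp of RAB26. Bovine RAB6B had the 59, 54, 106, 112, 94 and 67 bp of RAB6A, and Rab22a and Rab31 both had 80, 82, 72, 107 and 110 bp. RAB5A, RAB5B and RAB5C shared the exons of 152, 123 and 94 bp.

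The machinery that runs the RAB cycle was listed as well, and its mouse counts stand beside the 53.5% of all protein-coding symbols with a model. Of 15 genes for GDP dissociation inhibitors, escort proteins, prenyltransferase subunits and related factors, 14 had a mouse model and 15 a bovine one, and the gene absent in mouse was Chml. Rabggtb, a subunit of the enzyme that prenylates RAB proteins, had 7 mouse and 3 bovine models. Exchange factors were found for 33 of 43 symbols in mouse and 31 in bovine. RAB3IP, which activates RAB8, had 1 mouse and 9 bovine models, and Rabgef1, which activates RAB5, had 7 and 3. GTPase-activating proteins were found for 32 of 41 symbols in mouse and 31 in bovine, led by Rab3gap1 with 9 models in mouse and RABGAP1L with 9 in bovine. Effectors were found for 43 of 53 symbols in each library. The effector Wdr44, which binds RAB11, had 8 mouse models and 3 bovine ones, and OSBPL1A, which binds RAB7, had 1 and 10. With exact matches only, exchange factors numbered 23 of the 33 in mouse and 13 of the 31 in bovine. GTPase-activating proteins numbered 21 of 32 and 19 of 31, and effectors 27 of 43 and 26 of 43. The first list kept 14 of 14 and 13 of 15. Of all genes with a model, 72.5% in mouse and 65.5% in bovine had an exact match. The median was 2 to 3 models per found gene in each list.

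Stage and cell type markers were listed by whether they had a model. The gene lists were chosen with earlier results of these data known, so the counts are no independent check of stage. All 16 mouse 2-cell genes had a model in mouse. Most of those symbols are mouse names, so they were not compared with the bovine library. Of 11 genes of bovine genome activation 9 had one in bovine, among them ZSCAN4 with 7 models. Maternal oocyte genes were found for 16 and 15 of 17. Cumulus and granulosa markers were found for 10 of 18 in mouse, beside 53.5% of all mouse protein-coding symbols, and for 11 in bovine. HAS2, PTGS2, FOXL2, VCAN and GREM1 had a model in bovine only, and Fshr, Lhcgr, Inhba and Fst in mouse only. Sperm markers were found for 5 and 7 of 16. Prm1 had a model in neither, while Prm2 and Tnp1 had an exact model in mouse and TNP1 and TNP2 in bovine. Blood and immune markers were found for 5 and 6 of 15. That list holds globin names of 1 species only, such as Hba-a1 and HBA1, so its counts were not compared. The part of cumulus, sperm and blood cells in the RAB models was not tested.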

How the data were processed

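The files hold transcript models assembled by the authors from nanopore cDNA reads. The deposited values are other than abundances: exon positions, gene names and the class codes of a comparison with a reference annotation, per the file headers and attributes. Genome builds were mm10 and bosTau9, per the submitters' processing notes. Which aligner was run, and program versions, is not given in the sources used here. Ends of exact matches may have been taken from the reference, and read depth is unknown.

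Models on the gene's own strand (class codes =, c, k, m, n, j and o) were counted per gene with python 3.11.15, and exact 95% Clopper-Pearson intervals were computed with scipy 1.17.1. Models of a gene are not independent, so the intervals cover counting error only. Starts within 100 bp were joined into 1 start group. Each non-exact model that shared a splice site with an exact match of its library was set against the exact matches of its gene. First exons were set against all exact matches of the library on the same strand. Mouse models were also set against GENCODE M21. Mouse symbols, promoter bases and start sites came from RefSeq tables of GRCm38.p6. No bovine reference or protein sequence was used here. The event counting was tested on simulated models. Described in full were the 8 members with most models per library, members with a new first exon and members with at least 3 start groups. Members and gene lists were chosen with earlier results of these data known. Alternatives changed the model classes, the first-exon rule, the joining distance and the name pattern.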

Additional observations from a re-analysis of the deposited data

Results flagged for a closer look

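Some models carry a RAB gene name but a class code outside those counted above, for a place in an intron, an intron of their own around the gene's exons, or the opposite strand. They are listed because no count above uses them. There is no control level to set them against, so they say nothing particular about RAB genes. The mouse library held 6. Of these, 3 were on the gene's strand, in Rab30, Rab31 and Rab7, and 3 on the opposite strand, in Rab39, Rab5c and Rab6a. The Rab5c one had 3 exons and 1121 bp. The bovine library also held 6, with 2 on the gene's strand in RAB2A and RAB5A and 4 on the opposite strand in RAB10, RAB13, RAB3B and RAB4A. The RAB10 one had 4 exons and 1136 bp. Their strand rests on the assembly and was not tested.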

How the results depend on the processing

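Of 34 alternatives over 21 results, 24 were labelled as keeping the value and 10 as moving it. The label is broad, because mouse exchange factors going from 33 to 23 with exact matches only were still labelled as kept. The 4 mouse RAB models with a new first exon became 7 against the reference annotation, a count that takes in members without an exact match. They became 9 when the rule instead required a first-exon splice donor found in no exact match of the library. The 20 bovine ones became 5 when only starts upstream of every exact match counted. With starts within 500 bp joined, members with at least 3 start groups fell from 4 to 2 in mouse and from 6 to 2 in bovine. With exact matches only, mouse GTPase-activating proteins went from 32 to 21 and effectors from 43 to 27. In bovine, exchange factors went from 31 to 13, GTPase-activating proteins from 31 to 19 and effectors from 43 to 26. No paired analysis was possible because each species has 1 library, and no replicate could be left out. Without read numbers, the depth behind a missing gene or a single model cannot be given.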
